A study of Mus musculus with 6 samples.

Results

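Mitochondrial ribosomal protein genes were taken as all gene symbols that start with Mrpl or Mrps followed by a number. They were 76 of the 25206 probe sets on the arrays, with 48 named for the large subunit and 28 for the small subunit, and each gene had a single probe set. The arrays carried RNA from macrophages grown out of mouse bone marrow, in 3 samples exposed for 16 hours to 0.3 micromole of JG-98, a small molecule that blocks Hsp70 chaperones, and in 3 control samples labelled as given nothing. The labels name no vehicle, strain, age or sex, state the dose as an amount without a volume, and do not say whether replicates were separate cultures or animals. The p-values therefore weigh a difference only against the spread between these samples, and that spread may be technical.

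The mitochondrial ribosome makes the few proteins that the mitochondrial genome encodes, which are core subunits of the respiratory complexes and of ATP synthase. Its proteins are all encoded in the nucleus, made in the cytosol and imported into the matrix, and one of the motors that pulls them in is the mitochondrial Hsp70. Some have counterparts in bacterial ribosomes and others exist only in mitochondria. The large subunit joins amino acids, and the small subunit holds the messenger RNA.

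Values were log2 expression as deposited, and a difference is JG-98 minus control on that scale. JG-98 replicate 3 stood apart from the rest, with correlations of 0.992 to 0.993 to the other arrays, which correlated at 0.995 to 0.996 with each other. Its scale was also narrower, with quartiles over all probe sets of 2.86 and 6.66 around a median of 4.24. On the other arrays the lower quartile was 2.69 to 2.77, the median 4.08 to 4.15 and the upper quartile 6.71 to 6.76. The 9 macrophage markers measured had mean values from 8.36 to 12.03. The B cell, T cell, erythroid, stromal and neutrophil markers reached at most 4.65, the endothelial ones 5.70 and the dendritic cell ones 6.01. Values of different probe sets are not comparable as amounts of RNA, since each probe set has its own affinity and background. The 76 members had mean values between 2.30 and 8.75, and 70 of them lay at 5 or above. In bulk samples, fewer cells of a type and less RNA per cell cannot be told apart.

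No mitochondrial ribosomal protein gene passed the test between JG-98 and control arrays. At an adjusted p under 0.05 in limma, 0 of 76 were called, where 0.0397% of all probe sets were, and the smallest adjusted p among members was 0.34, for Mrps18b. At an unadjusted p under 0.05, 4 members were higher and 0 lower, that is 3 of the 28 small subunit genes and 1 of the 48 large subunit genes. Over all probe sets, 3.84% were higher and 4.48% lower by the same rule. Of the 10161 probe sets with a mean value of at least 5, where 70 of the members lie, 565 were higher and 754 lower. The differences of members ran from -0.25 for Mrps21 to 0.34 for Mrps18b.

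For 68 of the 76 members, the 95% interval of the difference lay within a change of 1.5-fold either way, as did those of 44 of the 48 large subunit and 24 of the 28 small subunit genes. The same held for 22140 of all 25206 probe sets and for 9640 of the 10161 with a mean value of at least 5, so the count says nothing particular to these genes. The intervals were taken gene by gene and do not hold jointly. The 8 members whose interval reached past 1.5-fold were Mrpl17, Mrpl32, Mrpl42, Mrpl48, Mrps10, Mrps14, Mrps21 and Mrps36. For these genes, 3 arrays a group do not bound a change to under 1.5-fold. The widest was that of Mrps36, at -0.66 to 1.17.

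**Figure D1:**
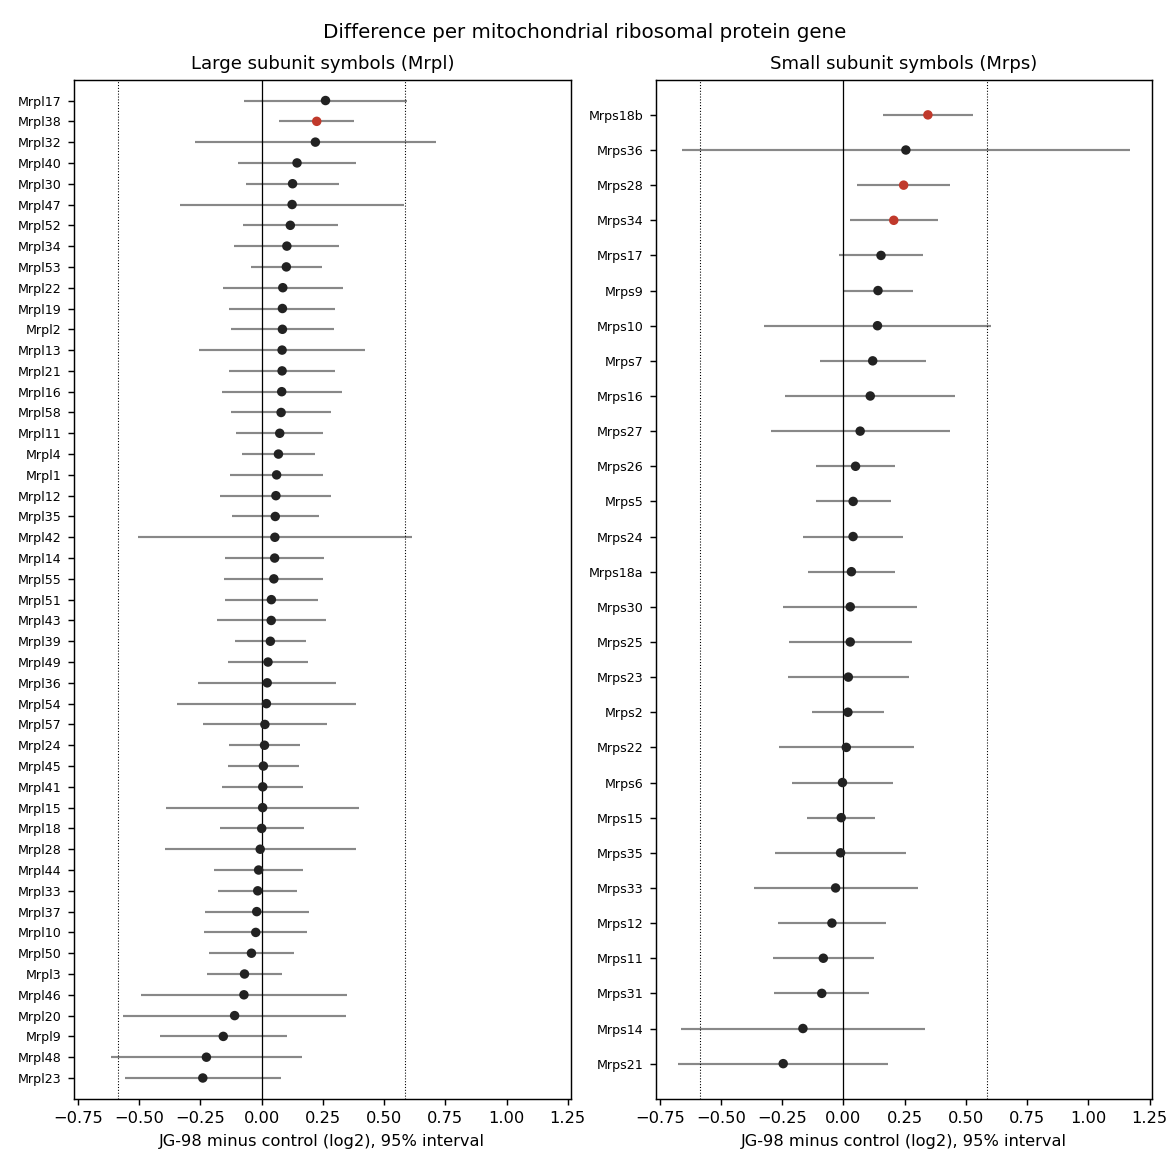
Difference of each gene between JG-98 and control arrays (log2, horizontal axis) with its 95% moderated interval, large subunit symbols left and small subunit symbols right, ordered by size. Red points mark the 4 genes at an unadjusted p under 0.05 (Mrpl38, Mrps18b, Mrps28 and Mrps34), and dotted lines mark 1.5-fold.

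Among the small subunit genes, Mrps18b, which encodes one of the mammalian relatives of the bacterial protein S18, read 8.55, 8.68 and 8.65 on the JG-98 arrays, against 8.38, 8.23 and 8.23 on the control arrays. All 3 JG-98 arrays were above all control arrays, with control replicate 1 the nearest to them. The difference was 0.34 ± 0.077 (SE, n = 3 per group), which is 1.27-fold, with a limma adjusted p of 0.34. It was called at an adjusted p of 0.030 with an intensity trend in the fit, and at 0.047 and 0.011 when the test was limited to probe sets with a mean value of at least 5 or 7.

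Mrps28, the counterpart of the bacterial protein S1, read 6.50, 6.62 and 6.58 on the JG-98 arrays, against 6.37, 6.21 and 6.39 on the control arrays. The groups did not overlap, and control replicate 2 was the lowest of the 6 arrays. Its difference was 0.25 ± 0.079, or 1.19-fold (limma adjusted p = 0.50). Mrps34, a mitochondria-specific protein of the small subunit, read 6.27, 6.39 and 6.47 on the JG-98 arrays, against 6.15, 6.18 and 6.19 on the control arrays. Here the controls lay close together and the JG-98 arrays spread over a wider range, all above them. The difference was 0.21 ± 0.075 (limma adjusted p = 0.53).

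Mrps9, whose bacterial counterpart sits in the head of the small subunit, read 6.52, 6.51 and 6.52 on the JG-98 arrays, against 6.39, 6.35 and 6.39 on the control arrays. Both groups were narrow and did not overlap, with a difference of 0.14 ± 0.059. Mrps17, a counterpart of bacterial S17, read 7.56, 7.67 and 7.58 on the JG-98 arrays, against 7.53, 7.44 and 7.39 on the control arrays. Its groups did not overlap either, although JG-98 replicate 1 lay close above control replicate 1, and the difference was 0.15 ± 0.071. The adjusted p in limma was 0.60 for Mrps9 and 0.65 for Mrps17.

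Mrps21, a counterpart of bacterial S21, had the lowest difference of all members, -0.25 ± 0.18. It read 8.39, 8.69 and 7.96 on the JG-98 arrays, against 8.69, 8.58 and 8.52 on the control arrays. The groups overlapped, since JG-98 replicate 2 was the highest of the 6 arrays and JG-98 replicate 3 the lowest. Mrps31 was at -0.09 ± 0.081 and Mrps7, whose bacterial counterpart helps to assemble the head, at 0.12 ± 0.090, both with overlapping groups. The highest mean value of the small subunit genes was that of Mrps15, with 8.74, 8.75 and 8.74 on the JG-98 arrays, against 8.74, 8.76 and 8.76 on the control arrays. Its difference was -0.01 ± 0.058, and its 95% interval was -0.15 to 0.13.

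In the large subunit, Mrpl38, a mitochondria-specific protein, was the only gene at an unadjusted p under 0.05. It read 6.87, 6.92 and 6.80 on the JG-98 arrays, against 6.65, 6.62 and 6.65 on the control arrays. The controls lay within a narrow range below all JG-98 arrays. The difference was 0.22 ± 0.064, or 1.17-fold (limma adjusted p = 0.44).

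Mrpl17, a counterpart of bacterial L17, read 6.50, 6.86 and 6.98 on the JG-98 arrays, against 6.60, 6.37 and 6.57 on the control arrays. JG-98 replicate 1 lay among the controls while replicates 2 and 3 were above them, and the difference of 0.26 ± 0.14 was the highest of the large subunit. Mrpl53, a mitochondria-specific protein, read 7.04, 7.08 and 7.12 on the JG-98 arrays, against 6.98, 6.96 and 6.99 on the control arrays. Its groups did not overlap, with a difference of 0.10 ± 0.061. Mrpl30, a counterpart of bacterial L30, likewise did not overlap, at 0.13 ± 0.079.

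Lower values were found for Mrpl23, whose bacterial counterpart lies at the mouth of the peptide exit tunnel, at -0.24 ± 0.13, and for Mrpl9 at -0.16 ± 0.11. Mrpl23 read 4.15, 3.82 and 4.05 on the JG-98 arrays, against 4.12, 4.13 and 4.48 on the control arrays. The groups overlapped through JG-98 replicate 1, and the value is low enough that background cannot be told from signal. Mrpl52, at 0.12 ± 0.081, and Mrpl40, at 0.14 ± 0.10, overlapped too, the first because control replicate 1 was above JG-98 replicates 1 and 3, the second because control replicates 1 and 3 were above JG-98 replicate 1. Over Mrpl17, Mrpl53, Mrpl30, Mrpl23, Mrpl9, Mrpl52 and Mrpl40, the limma adjusted p lay between 0.69 and 0.77.

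**Figure D2:**
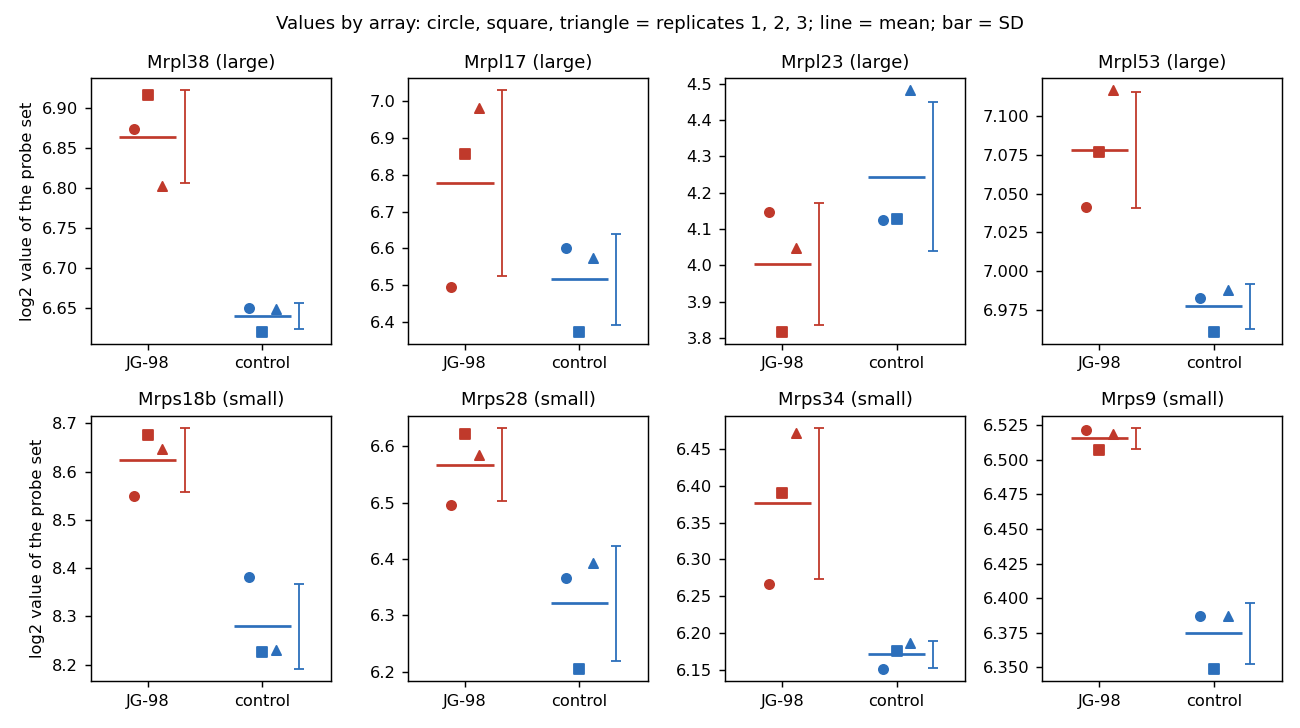
Log2 value of the probe set on each array (vertical axis, own scale per panel) for the 4 genes of each subunit with the smallest p, JG-98 left and control right. Lines are means and bars SD (n = 3 per group). In 6 of the 8 panels, all but Mrpl17 and Mrpl23, the JG-98 arrays lie above all controls. Picking genes by p favours such separation, which held for 9 of all 76 members (11.8%, against 11.5% of probe sets at 5 or above).

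Promoters are shown for Mrps18b and Mrpl17, the gene of each subunit with the smallest unadjusted p among those with a promoter window in RefSeq. Both were picked from these same values, and a link of their motifs to the difference was not tested. Mrpl38 had no entry among the RefSeq windows. The windows run from 250 bases before to 50 after the annotated start in GRCm38.p6, on the minus strand at chr17:35916391-35916690 for Mrps18b and on the minus strand at chr7:105811038-105811337 for Mrpl17. Capitals mark matches to the ETS core CCGGAAG or the NRF1 core CGCATGCG on either strand. ETS proteins such as GABP, and NRF1, are transcription factors known to drive many nuclear genes for mitochondria.
Mrps18b: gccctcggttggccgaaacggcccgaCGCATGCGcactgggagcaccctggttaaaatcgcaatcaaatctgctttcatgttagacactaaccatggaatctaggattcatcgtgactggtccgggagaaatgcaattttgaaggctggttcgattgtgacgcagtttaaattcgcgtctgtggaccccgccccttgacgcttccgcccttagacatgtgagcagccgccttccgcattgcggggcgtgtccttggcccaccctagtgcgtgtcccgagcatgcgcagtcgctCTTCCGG
Mrpl17: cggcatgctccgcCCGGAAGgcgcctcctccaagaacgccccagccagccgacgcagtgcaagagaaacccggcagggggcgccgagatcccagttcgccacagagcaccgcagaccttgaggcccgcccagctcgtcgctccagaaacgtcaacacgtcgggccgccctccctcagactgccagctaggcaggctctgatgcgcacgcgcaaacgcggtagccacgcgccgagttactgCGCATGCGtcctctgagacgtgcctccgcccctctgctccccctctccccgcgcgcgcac
Both windows held the ETS and the NRF1 core, and neither held the ATF4 and C/EBP composite site TGATGNAA, the YY1 core AAGATGGC or the E-box CACGTG.

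Over the whole set, 67 of the 76 members had a window, and with alternative starts there were 73. The ETS core stood in 32.9% of them, against 8.86% of all 32851 promoters in the table. The YY1 core stood in 16.4% against 2.75%, the NRF1 core in 9.59% against 1.87%, and the E-box in 8.22% against 7.15%. The ATF4 and C/EBP site, through which ATF4 acts on amino acid response genes, was in 0 of the 73 windows and in 3.97% of all promoters. Both strands were read, and matches of different motifs may overlap. A match is a run of letters and no measure of binding. The median difference was 0.09 for the 7 members with an NRF1 core and 0.03 for the 60 without, and 0.04 for the 24 with an ETS core and 0.03 for the 43 without. It was 0.04 both for the 12 members with a YY1 core and for the 55 without, and 0.0011 for the 4 with an E-box, against 0.04 for the 63 without. The 7 with an NRF1 core include Mrps18b and Mrpl17, and ran from -0.16 for Mrpl9 to 0.34 for Mrps18b. These splits were not tested.

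The median was 0.04 in the large subunit and 0.03 in the small subunit, against 0.00 over all probe sets and -0.01 over the 10161 probe sets with a mean value of at least 5. Of 76 members, 55 had a positive difference, or 72.4%, against 50.3% of all probe sets and 46.1% of those at 5 or above. In 9 members all JG-98 values lay above all controls, 11.8% of the set, and in 0 members all lay below. Those shares were 7.12% and 8.44% over all probe sets, and 11.5% and 15.3% over the brighter ones. Leaving out an array makes such separation easier by construction. The 9 and 0 became 21 and 2 without JG-98 replicate 3, and 10 and 4 without control replicate 2. The shares over all probe sets were not computed with an array left out, so these counts cannot be read against them. The small subunit median was -0.0058 without control replicate 2, and the positive differences then numbered 41. They numbered 63 without control replicate 1 and 60 without JG-98 replicate 3. With each array centred on its median, 46 were positive and the medians were 0.03 and 0.01. Quantile normalization of the deposited values instead gave 60 positive and medians of 0.06 and 0.04. Centring lowered JG-98 replicate 3 the most, because its median was the highest (4.24), a level below that of most members. With all arrays and the values as deposited, medians of either subunit were smaller than the spread between arrays of one group. That spread had an SD of 0.065 for the large and 0.053 for the small subunit.

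Arrays of one group differed among themselves. Measured as deviation from the control mean, the median large subunit gene was at 0.02, 0.11 and -0.02 on JG-98 replicates 1, 2 and 3, against 0.08, -0.04 and -0.01 on control replicates 1, 2 and 3. The median small subunit gene was at 0.09, 0.10 and 0.02 on the JG-98 arrays, against 0.07, -0.03 and -0.03 on the control arrays. Control replicate 1 thus lay above JG-98 replicate 3 in both subunits, so the groups overlapped. JG-98 replicate 2 was the highest of the 6 arrays for 32 members (42.1%, against 22.6% of the probe sets at 5 or above). JG-98 replicate 3 was the lowest for 26 (34.2%, against 37.3%), and control replicate 2 for 23 (30.3%, against 17.02%).

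Some members parted JG-98 replicate 3 from the other JG-98 arrays. Mrpl42, a mitochondria-specific protein of the large subunit, read 6.47, 6.68 and 5.76 on the JG-98 arrays, against 6.39, 6.12 and 6.25 on the control arrays. Mrpl15, a counterpart of bacterial L15, read 6.82, 6.74 and 6.22 on the JG-98 arrays, against 6.70, 6.51 and 6.56 on the control arrays. In both, JG-98 replicate 3 was the lowest array and the other JG-98 arrays were the highest. These genes were chosen after their values were seen. JG-98 replicate 3 was below both other JG-98 arrays in 41 of 76 members (53.9%), in 56.3% of probe sets at 5 or above and in 33.98% of all probe sets.

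**Figure D3:**
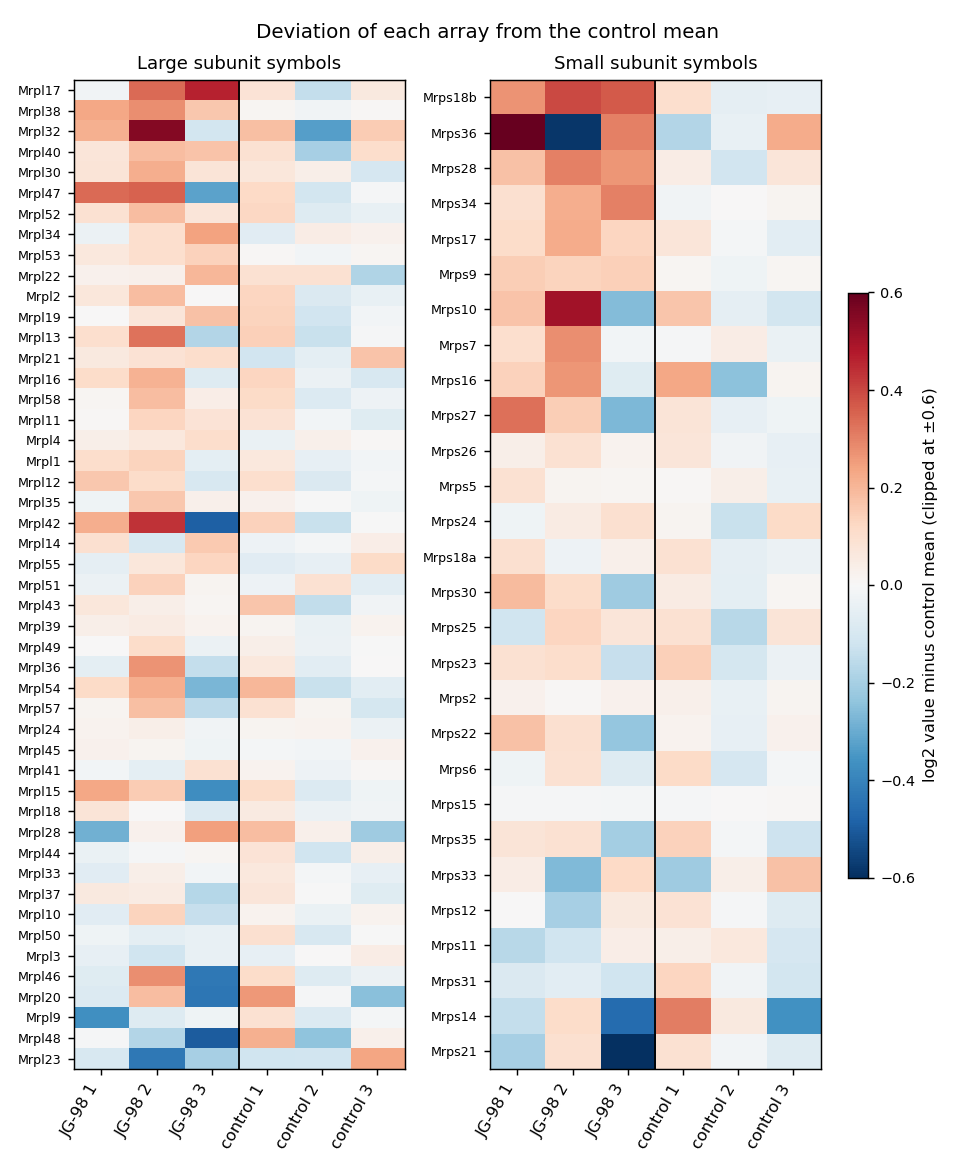
Each cell is the log2 value on one array minus the mean of the 3 controls (colour, clipped at ±0.6), with genes in rows by their difference and the JG-98 arrays left of the line. JG-98 replicate 2 is above the control mean for 61 of the 76 genes, control replicate 1 for 62 and control replicate 2 for 16.

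The large subunit median was 0.01 above the small subunit median in difference, where the same contrast had an SD of 0.031 between arrays of a group. It was -0.02 with array weights and also when either JG-98 replicate 2 or JG-98 replicate 3 was left out, so its sign was not stable. No p-value was computed for it, because genes are not replicates. Split by descent as in the structure-based naming of ribosomal proteins, which counts Mrps18b as mitochondria-specific, large subunit genes with a bacterial counterpart had a median of 0.06 (29 genes) and the mitochondria-specific ones 0.03 (19 genes). In the small subunit these were 0.04 (15 genes) and 0.02 (10 genes).

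Symbols and structure differ for a few members. Mrps18a and Mrps30 carry small subunit symbols but lie in the large subunit, and Mrps36 is a subunit of the 2-oxoglutarate dehydrogenase complex. Mrps18a, a relative of Mrps18b, was at 0.03 ± 0.074, with 7.40, 7.28 and 7.34 on the JG-98 arrays, against 7.40, 7.25 and 7.27 on the control arrays. Mrps18a had overlapping groups; the difference between it and Mrps18b was not tested. Mrps30 was at 0.03 ± 0.11. Mrps36 read 3.22, 1.59 and 2.47 on the JG-98 arrays, against 2.00, 2.13 and 2.39 on the control arrays, near the low end of the table, where background cannot be told from signal. With the first 2 moved to the large subunit and Mrps36 left out, the medians were 0.04 and 0.03.

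By place in the ribosome, with genes picked after values were seen, the values were as follows. At the stalk that recruits translation factors, Mrpl10, Mrpl11 and Mrpl12 were at -0.02 ± 0.087, 0.07 ± 0.074 and 0.06 ± 0.095. Around the exit of the peptide tunnel, Mrpl22, Mrpl24 and Mrpl47 were at 0.09 ± 0.10, 0.01 ± 0.061 and 0.12 ± 0.19, beside Mrpl23 above. Mrpl45, which ties the ribosome to the inner membrane, was at 0.01 ± 0.060. Mrps12, of the decoding centre, was at -0.05 ± 0.093. Mrpl58, a peptidyl-tRNA hydrolase that became part of the ribosome, was at 0.08 ± 0.085. None of these 9 genes had groups that did not overlap.

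The lowest mean values belonged to Mrps36, Mrps14 and Mrps10 in the small subunit and to Mrpl23, Mrpl22 and Mrpl36 in the large. Mrps14 was at -0.17 ± 0.21, Mrps10 at 0.14 ± 0.19, Mrpl22 at 0.09 ± 0.10 and Mrpl36 at 0.02 ± 0.12. Mrps14 read 2.60, 2.85 and 2.28 on the JG-98 arrays, against 3.05, 2.80 and 2.38 on the control arrays. The highest mean values, next to Mrps15, were those of Mrps21 and Mrps18b in the small subunit, and of Mrpl24, Mrpl30 and Mrpl58 in the large.

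Several members share a start region with another gene. In GRCm38.p6, 23 members had a protein-coding gene starting on the opposite strand, pointing away, within 1000 bases, which made 22 pairs. Starts that overlapped by up to 100 bases were also kept, as for Mrpl48 and Rab6a, with a gap of -36 bases. One pair joins the subunits, since Mrpl46 and Mrps11 start 42 bases apart. The window of Mrps11, on the plus strand at chr7:78782881-78783180, is shown because it holds both starts, with a match to the YY1 core in capitals. The window of Mrps12, on the minus strand at chr7:28741772-28742071, is shown because Mrps12 shares its start region with Sars2, the mitochondrial serine tRNA synthetase, 147 bases away; its capitals mark a YY1 and an ETS core.
Mrps11: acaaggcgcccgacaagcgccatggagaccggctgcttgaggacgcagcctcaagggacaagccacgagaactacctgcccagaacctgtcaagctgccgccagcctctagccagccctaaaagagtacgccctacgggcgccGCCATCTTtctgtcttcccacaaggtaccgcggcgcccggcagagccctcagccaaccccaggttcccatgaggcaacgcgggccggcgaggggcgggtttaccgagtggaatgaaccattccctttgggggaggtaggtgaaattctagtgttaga
Mrps12: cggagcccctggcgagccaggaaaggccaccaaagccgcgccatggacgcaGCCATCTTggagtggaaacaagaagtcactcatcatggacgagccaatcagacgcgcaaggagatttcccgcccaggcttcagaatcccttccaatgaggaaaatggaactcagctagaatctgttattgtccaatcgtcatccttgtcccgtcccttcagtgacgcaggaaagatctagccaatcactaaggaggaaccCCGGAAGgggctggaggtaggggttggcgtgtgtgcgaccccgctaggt
Mrpl46 was at -0.07 ± 0.18 and Mrps11 at -0.08 ± 0.086. Mrps12 was at -0.05 ± 0.093 and Sars2 at -0.03 ± 0.073. Both pairs differed by less than their SE.

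Of the 21 partners outside the set, 0 passed in limma over all probe sets. At an unadjusted p under 0.05, 4 were lower and 0 higher, where 4.48% of all probe sets were lower and 3.84% higher. The median was -0.01. The 4 were Ncapd2, a condensin subunit, at -0.25 ± 0.063, Ska3, a kinetochore protein, at -0.29 ± 0.12, Zfp189 at -0.23 ± 0.066 and the phospholipase gene Pnpla7 at -0.26 ± 0.082. Their members were Mrpl51 at 0.04 ± 0.079, Mrpl57 at 0.01 ± 0.11, Mrpl50 at -0.04 ± 0.072 and Mrpl41 at 0.00 ± 0.069. For Mrps18b the partner was Ppp1r10, a regulator of protein phosphatase 1, at -0.02 ± 0.061, starting 756 bases away. These partners were picked after values were seen, and the difference within a pair was not tested.

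**Figure D4:**
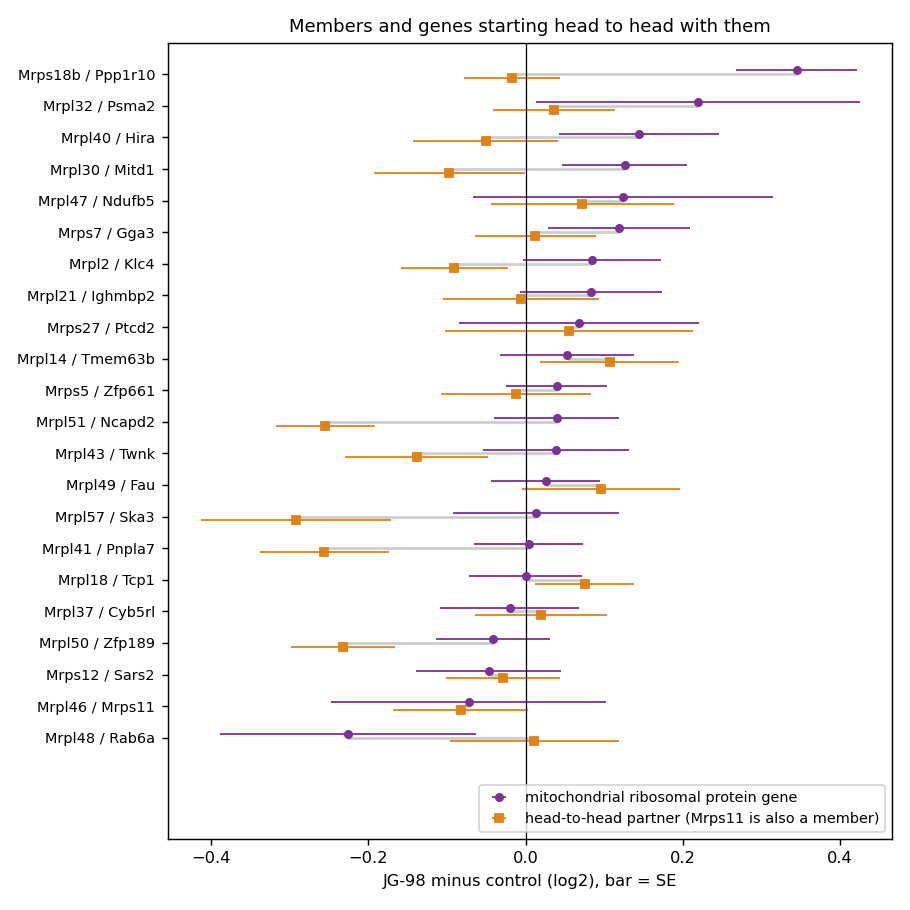
Difference between JG-98 and control arrays (log2, bars are SE) of each mitochondrial ribosomal protein gene (circles) and of the gene that starts head to head with it (squares), for the 22 pairs. Ncapd2, Ska3, Pnpla7 and Zfp189 lie below -0.2 while their members lie between -0.04 and 0.04.

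The other mitochondrial ribosomal proteins, whose genes have other names, gave 4 measured genes of 5. None passed (smallest adjusted p = 0.45). Gadd45gip1, a large subunit protein also known as Crif1, read 6.80, 6.60 and 6.51 on the JG-98 arrays, against 6.34, 6.24 and 6.37 on the control arrays. The groups did not overlap, and the difference was 0.32 ± 0.093. Dap3, a GTP-binding protein of the small subunit, was at 0.04 ± 0.089, the pentatricopeptide protein Ptcd3 at 0.04 ± 0.081 and Chchd1 at 0.05 ± 0.11.

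Genes that build, feed and run the mitochondrial ribosome did not pass either. Counts at an unadjusted p under 0.05, in these lists and those below, stand beside 3.84% higher and 4.48% lower over all probe sets. Of 28 assembly factors, 0 passed in limma, 2 were higher and 1 lower at an unadjusted p under 0.05, and the median was -0.01. These were Mterf4, which guides an rRNA methyltransferase to the ribosome, at 0.35 ± 0.098, the matrix protein C1qbp at 0.29 ± 0.10 and the rRNA methyltransferase Mrm2 at -0.22 ± 0.082. Of 16 translation factors, 1 was higher by that rule and 0 lower, with a median of -0.01. It was Gfm2, a factor of ribosome recycling, at 0.35 ± 0.093, while the elongation factor Gfm1 was at 0.17 ± 0.073 and the recycling factor Mrrf at 0.22 ± 0.10.

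Of the 17 mitochondrial tRNA synthetases, 16 were measured, 0 were past that mark in either direction, and the median was 0.04. Nars2 was at 0.25 ± 0.11, Ears2 at 0.18 ± 0.080 and Pars2 at -0.22 ± 0.11. The 11 genes of mitochondrial transcription and RNA processing also had 0 in either direction and a median of 0.02, with the tRNA-processing Trmt10c at 0.15 ± 0.082, the helicase Twnk at -0.14 ± 0.091 and the tRNA-processing nuclease Elac2 at 0.10 ± 0.077. Over these lists the smallest limma adjusted p was 0.41.

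Among 8 regulators of nuclear genes for mitochondria, 2 were higher at an unadjusted p under 0.05 and 0 lower, and none passed after adjustment. Myc, which drives genes of growth and ribosome production, was at 0.47 ± 0.085 (limma adjusted p = 0.26). It read 8.09, 8.14 and 8.26 on the JG-98 arrays, against 7.76, 7.57 and 7.75 on the control arrays, with no overlap. Its call was reached with an intensity trend (adjusted p = 0.016) and among probe sets of at least 5 or 7 (0.032 and 0.0060). Pprc1, a coactivator related to PGC-1, was at 0.32 ± 0.088. Gabpa, the DNA-binding part of GABP, was at -0.22 ± 0.093, and all its JG-98 values lay below all controls.

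The proteins of the cytosolic ribosome gave the nearest comparison in kind, but not in level. Of the 61 probe sets, 28 had a mean value of at least 5, against 70 of the 76 members. The 61 also include paralogs such as Rpl3l and Rpl10l. Of 61 measured, 0 passed, 3 were higher and 0 lower at an unadjusted p under 0.05, and the median was 0.02. The 3 were Rpl27a at 0.23 ± 0.073, Rpl36a at 0.67 ± 0.22 and Rpl17 at 0.24 ± 0.094. Rpl36a and Rpl17 were dim, with mean values of 4.21 and 4.61. Many cytosolic ribosomal protein genes have near-identical pseudogenes that can share probes, so these values are uncertain. By array, their median was at 0.03, 0.05 and 0.02 on JG-98 replicates 1, 2 and 3, against 0.04, -0.04 and 0.01 on control replicates 1, 2 and 3.

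**Figure D5:**
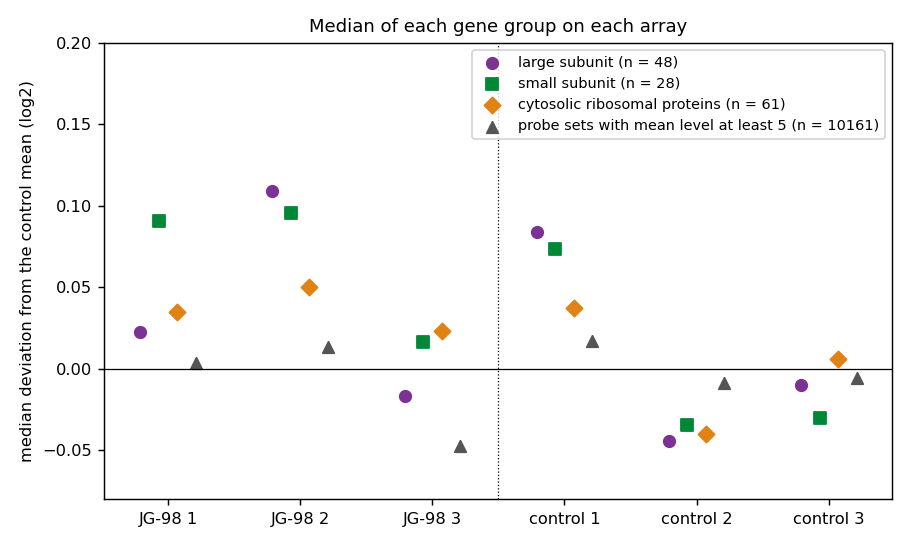
Median deviation from the control mean (log2) on each array, JG-98 arrays left, for large and small subunit genes, cytosolic ribosomal protein genes and all probe sets with a mean of at least 5. On control replicate 1 both subunits lie near 0.08, and on JG-98 replicate 3 between -0.02 and 0.02, while the brighter probe sets as a whole stay between -0.05 and 0.02.

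None of the markers of dividing cells passed either. All 5 measured had negative differences, with a median of -0.17. In 4 all JG-98 values lay below all controls, as in 8.44% of all probe sets and 15.3% of those at 5 or above. At an unadjusted p under 0.05, 3 were lower. The 3 were Cdc20, a mitotic activator, at -0.39 ± 0.073, the mitotic kinase Plk1 at -0.22 ± 0.068 and the topoisomerase Top2a at -0.17 ± 0.067. The group means of the 5 spanned 8.08 to 10.23 on the JG-98 arrays and 8.47 to 10.34 on the control arrays. Of the 9 macrophage markers, 7 had negative differences, 2 were lower at an unadjusted p under 0.05 and 0 higher. These were the complement gene C1qa at -0.24 ± 0.066 and the receptor Mertk at -0.22 ± 0.067, followed by the receptor Csf1r at -0.09 ± 0.061. Cd68 at 0.06 ± 0.064 and Fcgr1 at 0.04 ± 0.072 had positive differences. In 4 of the 9 all JG-98 values lay below all controls, and in 1, Cd68, all lay above. Those shares were 15.3% and 11.5% over probe sets at 5 or above. The median deviation of the 9 from the control mean was -0.06, -0.04 and -0.12 on JG-98 replicates 1, 2 and 3, against 0.01, 0.01 and -0.01 on control replicates 1, 2 and 3. With the test limited to probe sets of at least 7, Cdc20, Plk1, C1qa and Mertk passed, as did Cdc20 and C1qa with an intensity trend and Cdc20 among probe sets of at least 5.

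Markers of other cell types lay low, and none passed. At an unadjusted p under 0.05, 1 of 4 B cell markers was higher, 1 of 5 stromal markers higher and 1 lower, and 0 in the other lists. The B cell genes with the smallest p were Ms4a1 at 0.28 ± 0.067, Pax5 at -0.16 ± 0.17 and Cd79a at -0.11 ± 0.14, and the stromal ones Col3a1 at 0.31 ± 0.12, Dcn at -0.18 ± 0.073 and Cxcl12 at 0.07 ± 0.10. The T cell genes were Cd8a at 0.18 ± 0.11, Cd3g at 0.05 ± 0.077 and Cd3d at -0.07 ± 0.13, and the neutrophil ones Ltf at 0.17 ± 0.14, Elane at 0.08 ± 0.082 and S100a8 at 0.11 ± 0.11. Erythroid Alas2, Klf1 and Epor were at 0.21 ± 0.15, 0.01 ± 0.087 and -0.01 ± 0.090. Endothelial Cdh5, Pecam1 and Tek were at 0.15 ± 0.10, 0.16 ± 0.13 and -0.15 ± 0.17, and dendritic Cd209a, Itgax and Xcr1 at -0.31 ± 0.15, 0.20 ± 0.14 and 0.18 ± 0.17. The part of any of these cell types in the ribosomal values was not tested.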

How the data were processed

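RNA of 6 samples, 3 given JG-98 and 3 controls, was measured on single-colour Affymetrix arrays. The values deposited by the authors are on a log2 scale, with 1 value for each probe set on each array. The submitters' processing notes list RMA, affy and R 2.15.1 but not what each was used for, and no genome build was found in the labels. RMA as generally defined normalizes arrays by quantiles, which takes out any change common to all genes, and it compresses differences of dim probe sets.

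Probe sets were named through the platform annotation, which gave 1 symbol for 23185 of 25206, and symbols were checked by Entrez number against RefSeq (GRCm38.p6), where all matched and none changed. The test was the two-sided moderated one of limma (version 3.58.1, under R 4.3.3), fitted over all probe sets, with Benjamini-Hochberg adjustment and a threshold of 0.05; the script was tested on simulated data. SEs and intervals are moderated, with 4 residual and 2.59 prior degrees of freedom. Promoters came from RefSeq. The number of arrays limits precision.

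The members, lists and tests were chosen with earlier results of these data known. Genes named are the 8 of each subunit with the smallest unadjusted p, the 3 with the highest and lowest mean value, those with a special place in the ribosome, and the 3 with the smallest p in each other list; others are said to have been chosen after seeing values. Alternatives were other scalings, filters on dim probe sets, eBayes priors, array weights (statmod 1.5.0), leaving out each array, blocking on replicate number, and other membership rules. Mrpl27, Mrps18c and Aurkaip1 were not analysed here.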

Additional observations from a re-analysis of the deposited data

How the results depend on the processing

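Over all probe sets, 10 passed in limma, against 25 with array weights, 254 with an intensity trend, 234 and 553 among probe sets with a mean of at least 5 or 7, and 0 in the fit blocked on replicate number. Leaving out 1 array gave 0 to 5. Of the ribosomal genes, 0 passed, against 1 (Mrps18b) with the trend and with either filter, and 0 in every other alternative, each array left out included. In those others their smallest limma adjusted p was 0.17 with array weights, 0.67 with the block and 0.32 to 0.79 without 1 array. Myc passed in the same 3 alternatives as Mrps18b. At an unadjusted p under 0.05, 4 were higher, against 1 after median centring, 6 after quantile normalization and 2 to 6 without 1 array. By the same rule 0 were lower, against 1 with array weights and 0 to 1 without 1 array. Genes with all JG-98 values on one side numbered 9, against 5 after median centring and 12 after quantile normalization. They were 5 of 29 tested at a mean of at least 7, and 12 to 23 without 1 array. The matching shares over all probe sets were not computed in these alternatives, and separation is easier with 1 array fewer. The large minus small median was 0.014, against -0.020 with array weights and -0.023 to 0.032 without 1 array. The large subunit median ran from 0.0054 to 0.058 and the small subunit median from -0.0058 to 0.074 without 1 array. The causes were not tested.

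Changes of sign were checked for the genes named by rule, not for those named only after values were seen. Some of the former changed sign without 1 array, among them Mrps36, which had one of the highest differences of the set. Their ranges were -0.031 to 0.142 for Chchd1, -0.033 to 0.111 for Dap3, -0.0047 to 0.132 for Mrpl22, -0.0073 to 0.027 for Mrpl24, -0.101 to 0.104 for Mrpl36, -0.044 to 0.338 for Mrps10, -0.052 to 0.148 for Mrps30, -0.140 to 0.674 for Mrps36 and -0.011 to 0.110 for Ptcd3. Among markers of other cell types they were -0.197 to 0.034 for Cd3d, -0.011 to 0.099 for Cd3g, -0.206 to 0.029 for Cd79a, -0.326 to 0.023 for Pax5, -0.091 to 0.047 for Epor, -0.054 to 0.078 for Klf1 and -0.0076 to 0.286 for Xcr1. Klf1 was at -0.0055 after median centring and -0.015 with array weights, and Mrpl24 was at -0.0080 after median centring. Mrpl36 was also at -0.010 without control replicate 2, the array whose absence put Mrps30 at -0.0019; Mrps30 was at -0.012 with JG-98 replicate 2 left out.

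Whether the replicate numbers pair the samples was not settled. Deviations from the group mean correlated at 0.10, -0.13 and 0.10 for same-numbered arrays, and at -0.23 to 0.20 for the others. With 3 arrays a group, the deviations within a group depend on each other, so these correlations cannot decide it. The block changed no call of a ribosomal gene. With 3 arrays a group, no detection p-values and 1 probe set per gene, small changes and dim genes such as Mrps36 and Mrps14 cannot be resolved.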
